A study of Danio rerio with 8 samples.

Results

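The genes described here are 9 classical markers of radial glia and neural progenitors: the intermediate filament genes nes, vim and gfap, the lipid carrier gene fabp7a, the glutamine synthetase genes glula and glulb, the RNA-binding protein gene msi1, and the midkine growth factor genes mdka and mdkb. They were picked by symbol from a table of 36351 gene rows, where each symbol had 1 row, and all 9 passed the filter on low counts that left 22467 genes. Each library was made from a pool of whole zebrafish embryos aged 26 hpf (hours after fertilisation), as rRNA-depleted total RNA. The 4 control libraries were wild-type, and the 4 mutant libraries were maternal-zygotic (MZ) osgep G177A/G177A, meaning that mother and embryo both carried only the G177A allele. The osgep protein is the catalytic part of KEOPS, an enzyme complex that modifies tRNAs that read codons beginning with A. The embryos came from single and group crosses, and no label ties a pool to a clutch, so each p-value reflects how far these pools vary, which may be technical.

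Radial glia are elongated cells that line the ventricles of the developing brain and spinal cord, divide to give neurons, and persist as the main glia of the fish brain. Their cytoskeleton is built from vimentin, nestin and glial fibrillary acidic protein, and they carry brain-type fatty acid binding protein and glutamine synthetase, which turns glutamate and ammonia into glutamine. Musashi-1 is an RNA-binding protein of neural progenitors, and midkines are secreted heparin-binding growth factors that are made in the neural tube and in other embryonic tissues. None of these genes is restricted to radial glia: nestin and vimentin also occur in muscle and mesenchymal precursors, and glutamine synthetase in many tissues. In pools of whole embryos, fewer cells of a type and less RNA per cell cannot be told apart.

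The markers did not move as a block. In the mutant libraries nes and glula rose, fabp7a and mdkb fell, and the other 5 did not pass the test. These 4 of 9 stand against a background in which 32.2% of all tested genes were called (15.8% higher and 16.3% lower), so changes of this kind were common across the whole table. With each of the 8 libraries left out in turn, nes and fabp7a kept their calls in all 8 fits. The calls of glula and mdkb, whose genotypes overlap, held in only 2 of those 8 fits. The test was edgeR's quasi-likelihood F test over all genes kept, with Benjamini-Hochberg adjustment and a threshold of 0.05. Levels are in CPM, counts scaled to library size after TMM scaling, which sets the bulk of genes equal between libraries, and fold changes are log2 of mutant over wild type. The genotypes did not overlap for nes, gfap and fabp7a, which is 3 of 9 against 33.7% of all tested genes.

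**Figure D1:**
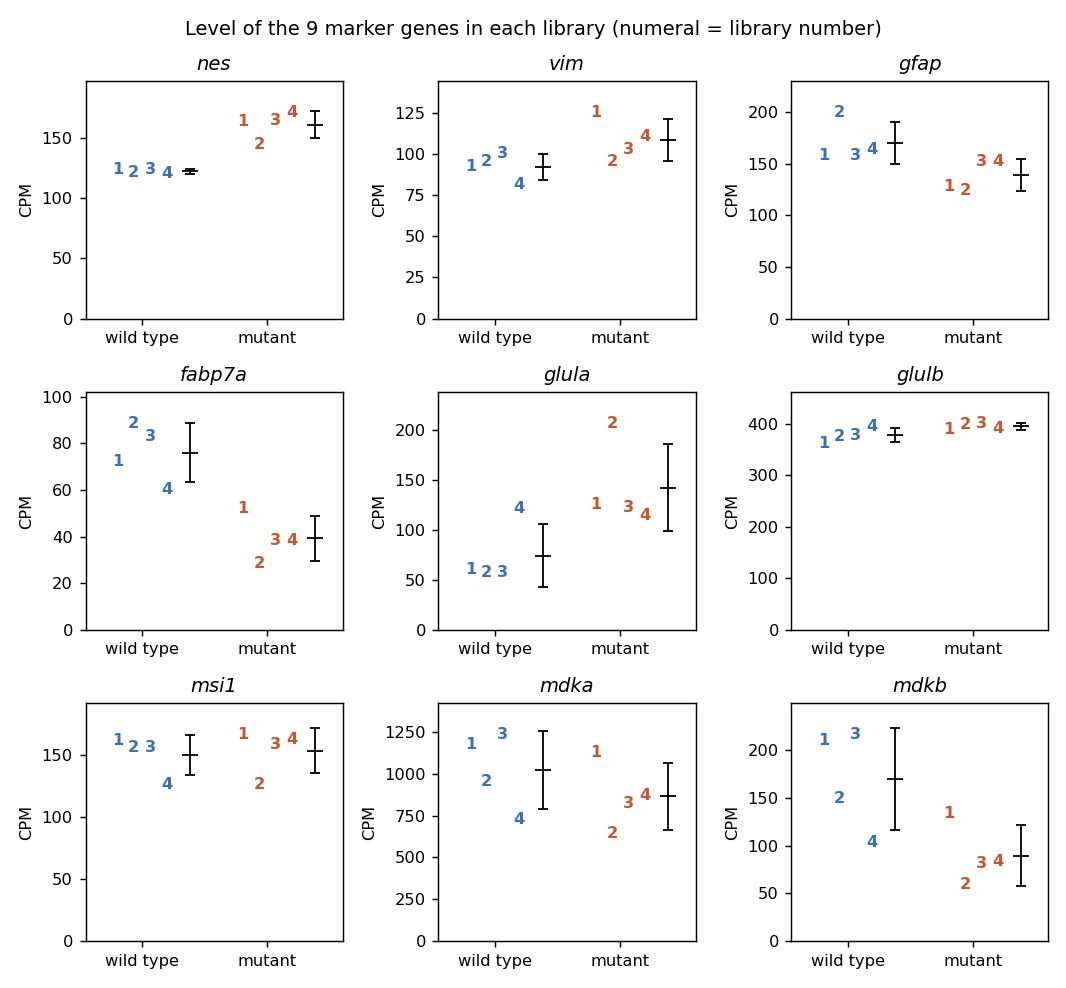
CPM of the 9 marker genes (vertical axes, starting at 0) in each wild-type (blue) and mutant (orange) library; numerals are library numbers, and black bars give the mean ± SD of 4 libraries. The wild-type values of nes lie between 119.9 and 124 CPM, all under the mutant values of 145 to 171 CPM, while glulb stays between 363 and 401 CPM in all 8 libraries.

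The libraries differed in composition within each genotype, which bears on several markers. Totals ran from 21290942 to 27675104 expected counts. The share of counts in 83 cytoplasmic ribosomal protein genes ran from 8.89% to 16.02% in wild type and from 8.09% to 16.7% in the mutant, with wild-type library 4 and mutant library 2 lowest. The same libraries had the highest summed level of 23 genes typical of the yolk syncytial layer and liver, such as apolipoprotein genes, a list chosen after the values were seen. That sum was 1321 to 1856 CPM in wild-type libraries 1 to 3 and 7600 CPM in library 4, against 4789 to 7072 CPM in mutant libraries 1, 3 and 4 and 18105 CPM in library 2. The transcript of osgep stood at 16.1, 20.4, 17.1 and 23.2 CPM in wild-type libraries 1 to 4 and at 13.8, 8.38, 10.8 and 10.0 CPM in the mutant libraries. Its log2 fold change was −0.84 (SE 0.18, edgeR adjusted p = 0.00826). Gene counts cannot tell the alleles apart, and the genotype is therefore not checked by this level.

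Of the filament genes, nes (ENSDARG00000088805), which encodes the large intermediate filament protein nestin, showed the tightest separation. Its level was 124, 121, 123 and 119.9 CPM in wild-type libraries 1 to 4 and 163, 145, 164 and 171 CPM in mutant libraries 1 to 4. Every mutant library lay above every wild-type library. The spread was 1.52% of the mean in wild type, where counting error alone could give as much, and 7.04% in the mutant. The rise was 1.32-fold (log2 fold change 0.40, SE 0.080, edgeR adjusted p = 0.00579), so it is small but large against the spread of the pools. It passed the threshold under every alternative run, with adjusted p from 4.94e-07 to 0.0243.

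The vimentin gene vim (ENSDARG00000010008) encodes the filament protein with which nestin co-assembles. It ranged from 81.5 to 100.1 CPM in wild type and from 95.1 to 125 CPM in the mutant, and the genotypes overlapped. Its log2 fold change was 0.23 (SE 0.11, edgeR adjusted p = 0.141). It was also the only member with fractional counts, in 8 of 8 libraries, which shows that some of its reads were divided with another gene, so its level is less certain than the others. The log2 ratio of nes to vim within a library averaged 0.41 ± 0.11 in wild type and 0.57 ± 0.13 in the mutant (SD, n = 4). That difference did not pass (exact two-sided permutation test p = 0.0857).

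The gene gfap (ENSDARG00000025301), which encodes glial fibrillary acidic protein, pointed the other way from nes. Wild-type libraries 1 to 4 had 158, 199.9, 158 and 164 CPM, and mutant libraries 1 to 4 had 128, 124, 152 and 152 CPM. The genotypes did not overlap, although wild-type library 3 and mutant library 4 were only a few CPM apart. The log2 fold change of −0.29 (SE 0.12) did not pass over all genes (unadjusted p = 0.034, edgeR adjusted p = 0.0877). With ribosomal protein share added as a covariate, an alternative chosen after seeing the data, both gfap (log2 fold change −0.31, edgeR adjusted p = 0.0241) and vim (0.28, edgeR adjusted p = 0.00326) passed, in a fit that called 52.2% of all tested genes. With the yolk and liver covariate, also chosen after seeing the data, neither gfap (−0.14, edgeR adjusted p = 0.532) nor vim (0.41, edgeR adjusted p = 0.0607) passed.

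**Figure D2:**
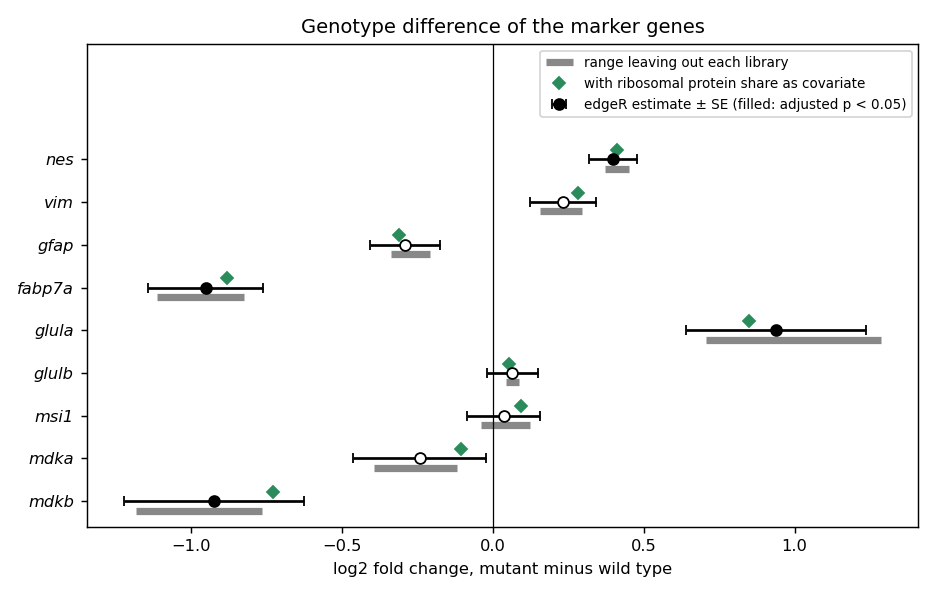
Log2 fold change, mutant minus wild type, of each marker (circles, ± SE; filled where the edgeR adjusted p is under 0.05), with the range of the estimate when each library is left out in turn (grey bars) and the estimate with ribosomal protein share as a covariate (green diamonds). The estimates for nes, glula, vim and glulb are above 0 and those for fabp7a, mdkb, gfap and mdka below 0 in all of these fits. Only the grey bar of msi1 crosses 0, from −0.041 to 0.12.

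The fall of fabp7a (ENSDARG00000007697), whose product carries long-chain fatty acids in radial glia, was close to a halving. Wild-type libraries 1 to 4 measured 72.2, 88.6, 82.9 and 60.0 CPM, and mutant libraries 1 to 4 measured 52.0, 28.6, 38.3 and 38.1 CPM. The lowest wild-type library exceeded the highest mutant library. The mutant mean was 51.7% of the wild-type mean (log2 fold change −0.95, SE 0.19, edgeR adjusted p = 0.00588). The call held with each library left out (edgeR adjusted p from 0.00182 to 0.0216). It ended when the summed yolk and liver genes were added as a covariate (log2 fold change −0.57, edgeR adjusted p = 0.0846), a fit in which 18.4% of all genes were called. That sum was higher in every mutant library than in wild-type libraries 1 to 3. For this and other genes, a call lost with it does not tell its part from that of the genotype.

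The duplicate gene fabp7b fell as well, from a much smaller read number. Wild-type libraries averaged 1.90 ± 0.663 CPM and mutant ones 0.226 CPM, the latter from 23 reads in all (wild-type SD, n = 4; log2 fold change −3.03, SE 0.43, edgeR adjusted p = 0.00117). The log2 ratio of fabp7a to fabp7b was 5.30 ± 0.33 in wild type and 6.94 ± 0.29 in the mutant (SD, n = 4), computed with 0.1 CPM added to each level. All 4 mutant libraries lay above all 4 wild-type libraries, and the difference had the smallest p that 4 against 4 libraries allow (exact two-sided permutation test p = 0.0286), but did not pass when adjusted over the 4 ratios tested (0.0571). The mutant fabp7b counts are few, and the size of this difference depends on the amount added: it was 1.65 with 0.1 CPM, 0.73 with 0.5 CPM and 2.18 with none, with the same p.

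Of the 11 fatty acid binding protein genes listed besides fabp7a, 7 were measured well enough to test. Of these, 1 rose and 2 fell (42.9% called, against 32.2% of all tested genes). Besides fabp7b, the heart-type gene fabp3 fell from 426 ± 64.5 to 264 ± 45.1 CPM (edgeR adjusted p = 0.0113), though not with the yolk and liver covariate (adjusted p = 0.171). The liver-type gene fabp1b.2 rose from 23 to 1030 summed counts, with 27.1 CPM in mutant library 1 and 3.21 to 6.11 CPM in the other mutant libraries. The adipocyte-type gene fabp11a measured 31.96 ± 2.42 and 22.8 ± 5.29 CPM and did not pass (edgeR adjusted p = 0.0535), though it did in 4 of its 16 alternatives.

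The glutamine synthetase duplicates behaved differently. Wild-type libraries 1 to 4 had 60.0, 57.8, 57.1 and 122 CPM of glula (ENSDARG00000099776), and mutant libraries 1 to 4 had 125, 207, 122 and 114 CPM. Wild-type libraries 1 to 3 were alike and low, wild-type library 4 lay within the mutant range, and mutant library 2 stood above all others. The mean rose 1.92-fold (log2 fold change 0.94, SE 0.30, edgeR adjusted p = 0.0408). Without wild-type library 4 the adjusted p was 0.00342, and without mutant library 1 it was 0.0428. Without any other single library the call was lost (edgeR adjusted p from 0.0557 to 0.109).

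The mutant libraries ranked by glula in the same order as by the yolk and liver genes, and in wild type library 4 was highest and library 1 next in both. Wild-type library 4 and mutant library 1, at 7600 and 7072 CPM of those genes, had 122 and 125 CPM of glula. Mutant library 2, highest in those genes, was highest in glula. With their log2 sum as a covariate, the glula difference was 0.20 on the log2 scale (SE 0.11, edgeR adjusted p = 0.237). Of the 22 genes of that list tested, 2 rose and 1 fell in all libraries (13.6% called, against 32.2% of all tested genes). In the same list 17 rose and 1 fell without wild-type library 4, where 3981 of 22983 tested genes were called higher. Without wild-type library 4 and mutant library 2, 18 rose and 2 fell, and 3704 of 22561 tested genes were called higher. Wild-type library 4 was the highest of its genotype in these genes, so leaving it out favours rises. How far the covariate differs with genotype hangs on that library, and its part and that of the genotype cannot be told apart. The most abundant genes of the list were apoeb (564 ± 364 and 1528 ± 882 CPM), which did not pass (edgeR adjusted p = 0.0525) but did without wild-type library 4 (adjusted p = 0.00817), apoa1b, apobb.1 and apoa1a.

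**Figure D3:**
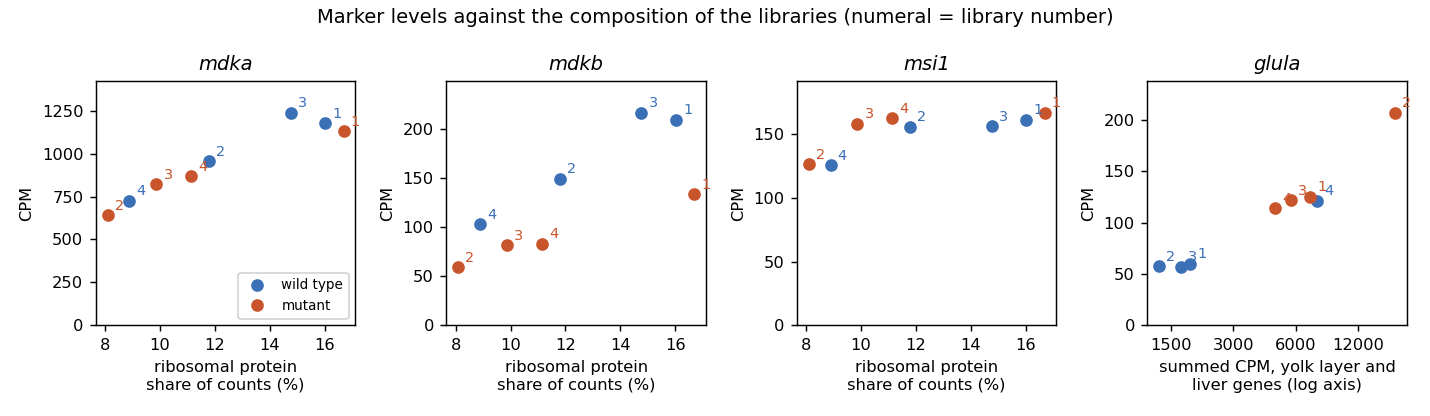
CPM of mdka, mdkb and msi1 against the percentage of counts in ribosomal protein genes, and CPM of glula against the summed CPM of yolk layer and liver genes (log axis), with 1 point per library and numerals for library numbers. Points of mdka from both genotypes lie along 1 band, mutant libraries 2 to 4 lie below every wild-type library for mdkb while mutant library 1 (134 CPM) exceeds wild-type library 4 (103 CPM), and glula is highest in mutant library 2, where the yolk and liver sum is 18105 CPM.

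By contrast glulb (ENSDARG00000100003) varied little between libraries. It ran from 363 to 395 CPM in wild type and from 389 to 401 CPM in the mutant, with a mutant spread of 1.63% of the mean. Its log2 fold change was 0.065 (SE 0.083, edgeR adjusted p = 0.602). Both genes together had 452 ± 43.8 CPM in wild-type and 537 ± 47.0 CPM in mutant libraries (SD, n = 4; exact two-sided permutation test p = 0.0857). The log2 ratio of glula to glulb went from −2.43 ± 0.49 to −1.52 ± 0.38 (SD, n = 4) and did not pass either (exact two-sided permutation test p = 0.0857), but it did without wild-type library 4 (exact permutation p = 0.0286).

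Genes that make, use or carry glutamate and glutamine changed in both directions. Of the 31 tested, 10 rose and 11 fell (67.7% called, against 32.2% of all tested genes). Their median log2 fold change was −0.088 against 0.0042 over all genes. The 4 with the smallest p all rose. They were asns, which uses glutamine to make asparagine (73.1 ± 4.90 to 394 ± 23.4 CPM), and the neutral amino acid transporter genes slc1a5 (44.2 ± 7.45 to 293 ± 36.95 CPM), slc38a2 (47.6 ± 7.52 to 246 ± 37.7 CPM) and slc38a5a (11.6 ± 3.04 to 72.9 ± 4.94 CPM). Those that fell included, singled out after their values were seen, the glutaminase genes glsa (log2 fold change −0.59), glsb (−0.71) and gls2b (−1.69). Their enzymes split glutamine into glutamate and ammonia. The other listed glutaminase gene, gls2a, pointed upward and did not pass (log2 fold change 0.78, SE 0.35, edgeR adjusted p = 0.124). The glial glutamate transporter gene slc1a2b fell from 37.5 ± 4.33 to 21.0 ± 1.41 CPM (edgeR adjusted p = 0.000753).

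The RNA-binding protein gene msi1 (ENSDARG00000010710) showed no difference beyond the spread of the pools in the main fit. It ranged from 126 to 161 CPM in wild type and from 126 to 167 CPM in the mutant, and the ranges nearly coincided. Its log2 fold change was 0.035 (SE 0.12, edgeR adjusted p = 0.854), and its sign turned without wild-type library 4 (−0.041) and without mutant library 1 (−0.0045). Within each genotype, the libraries ranked by msi1 in the same order as by ribosomal protein share. With the yolk and liver covariate the estimate for msi1 was 0.31 (SE 0.11) and did not pass (edgeR adjusted p = 0.0838). Its relatives msi2a (log2 fold change −0.25, SE 0.11) and msi2b (−0.23, SE 0.094), singled out after their values were seen, did not pass.

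The midkine duplicates varied with library composition within each genotype. For mdka (ENSDARG00000036036), wild-type libraries 1 to 4 had 1179, 957, 1237 and 725 CPM, and mutant libraries 1 to 4 had 1130, 640, 823 and 869 CPM. The ranges overlapped over most of their length, and in both genotypes the library with the lowest ribosomal protein share had the lowest mdka. The log2 fold change was −0.24 (SE 0.22, edgeR adjusted p = 0.447). With ribosomal protein share added as a covariate, the SE dropped to 0.069 and the estimate was −0.11 (edgeR adjusted p = 0.220). With the yolk and liver covariate the sign turned (log2 fold change 0.20, SE 0.24, edgeR adjusted p = 0.617).

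For mdkb (ENSDARG00000020708), wild-type libraries 1 to 4 had 209.9, 149.8, 217 and 103 CPM, and mutant libraries 1 to 4 had 134, 59.2, 81.5 and 83.2 CPM. Mutant library 1, which had the highest ribosomal protein share of all, exceeded wild-type library 4, which had the lowest share of its genotype. The mean fell to 52.7% of wild type (log2 fold change −0.92, SE 0.30, edgeR adjusted p = 0.0427). The call held without wild-type library 4 (adjusted p = 0.0149) and without mutant library 1 (adjusted p = 0.0106). It was lost without any other single library (edgeR adjusted p from 0.0693 to 0.113). With ribosomal protein share as a covariate the fall was 0.73 on the log2 scale with an SE of 0.079 (edgeR adjusted p = 3.04e-05), and with the yolk and liver covariate it was not called (log2 fold change −0.32, SE 0.34, edgeR adjusted p = 0.565).

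A ratio taken within a library does not depend on scaling and separated the genotypes for this pair. There were 5.61 to 7.02 mdka reads for each mdkb read in wild type and 8.43 to 10.8 in the mutant. The log2 ratio was 2.62 ± 0.15 in wild type and 3.31 ± 0.16 in the mutant (SD, n = 4), and all 4 mutant libraries lay above all 4 wild-type libraries. The difference of 0.68 reached the smallest p that the exact two-sided permutation test allows (p = 0.0286, and 0.0571 adjusted over the 4 ratios). Leaving out single libraries kept it between 0.64 and 0.76. The adjusted value misses the threshold, and a ratio does not show which of its genes changed. The ratio also varied with composition within each genotype. In wild type it ran in the reverse order of ribosomal protein share, and in the mutant library 1 was lowest and library 2 highest. Both genes together had 1194 ± 287 CPM in wild-type and 955 ± 234 CPM in mutant libraries (SD, n = 4; exact two-sided permutation test p = 0.257).

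**Figure D4:**
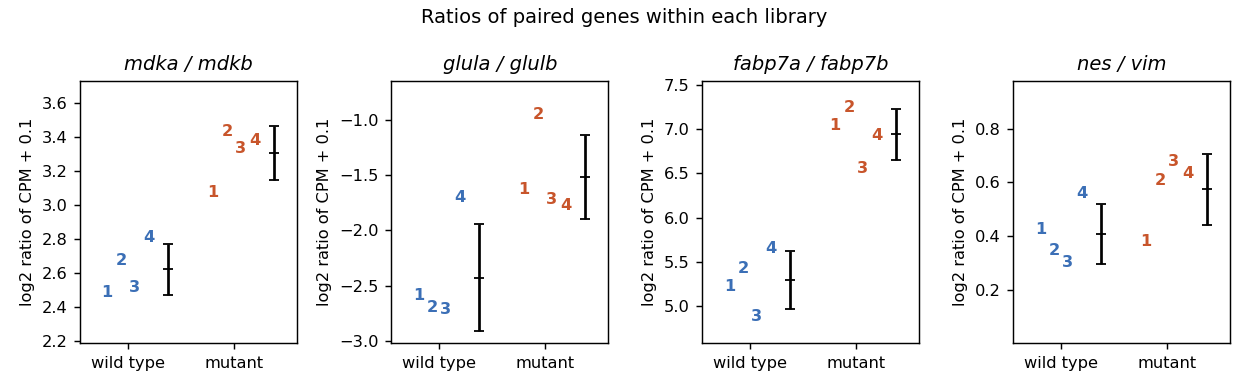
Log2 ratio of CPM + 0.1 for 4 gene pairs in each wild-type (blue) and mutant (orange) library; numerals are library numbers and black bars the mean ± SD of 4 libraries. The genotypes are apart for mdka / mdkb (means 2.62 and 3.31) and fabp7a / fabp7b (5.30 and 6.94), and they overlap for glula / glulb and nes / vim.

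Of 22 tested genes of midkine and pleiotrophin signalling besides these, 3 rose and 5 fell (median log2 fold change 0.14), and the share called, 36.4%, was near the 32.2% of all tested genes. The number that fell was 2 without wild-type library 2 and 3 without wild-type library 3, mutant library 3 or mutant library 4. Over the whole table, the genes called lower also dropped in these fits, from 3665 to between 2680 and 2801. The receptor tyrosine kinase genes ltk (4.71 ± 0.827 to 1.44 ± 0.269 CPM, edgeR adjusted p = 0.000755) and alk (1.12 ± 0.288 to 0.195 ± 0.0722 CPM, edgeR adjusted p = 0.00168) fell, though ltk is also a gene of pigment cell precursors and alk rested on 20 counts in the mutant. The receptor phosphatase gene ptprz1b, a radial glial receptor of pleiotrophin in mammals, fell as well (log2 fold change −0.45, edgeR adjusted p = 0.0439), a value singled out after it was seen. The genes of the laminin receptor subunit itga6a (74.1 ± 4.31 to 138 ± 21.3 CPM) and of the endocytic receptor lrp1ab (117 ± 15.13 to 224 ± 52.2 CPM) rose. The lrp1ab call ended with the yolk and liver covariate (edgeR adjusted p = 0.0707). The related ligand gene ptn, singled out after its value was seen, had a log2 fold change of 0.057 (SE 0.155).

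**Figure D5:**
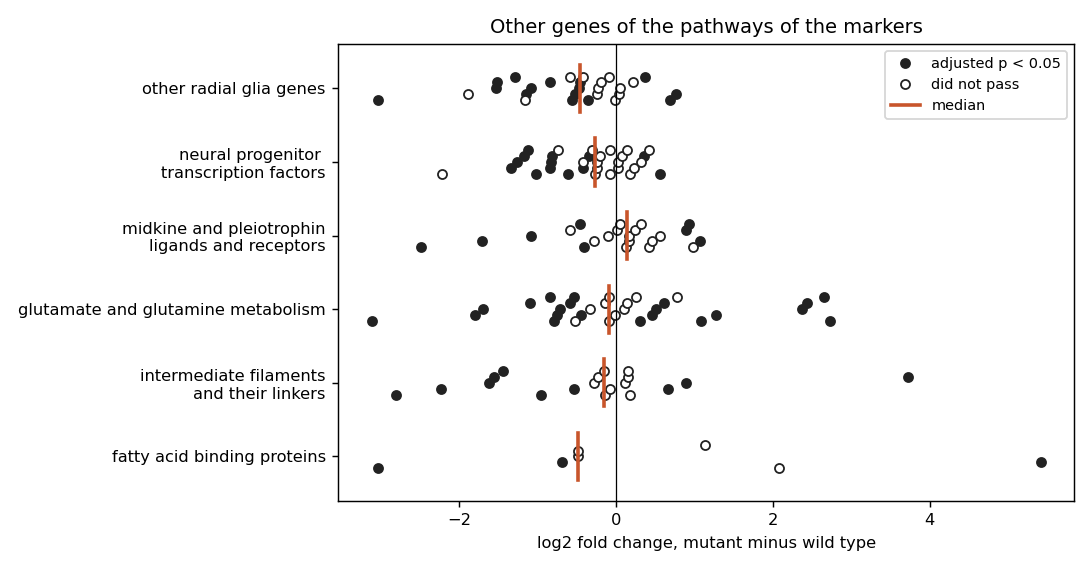
Log2 fold change, mutant minus wild type, of each tested gene in 6 lists of genes related to the markers (filled circles: edgeR adjusted p under 0.05; open circles: did not pass; orange lines: list medians). Each of the 6 lists has more filled circles below 0 than above it, but the lists share genes and are not separate observations. The falls of fabp7b, slc1a2b and ptprz1b each count in 2 lists. The median of the midkine and pleiotrophin list is above 0 (0.14). Other radial glia genes (median −0.45) have 3 above and 12 below, and neural progenitor transcription factors (−0.27) have 2 above and 11 below. The intermediate filament list has 3 above and 7 below, and the glutamate and glutamine list has 10 above and 11 below.

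Other genes used as radial glia markers leaned lower more often than higher. Of 27 tested, 3 rose and 12 fell (55.6% called, against 32.2% of all tested genes), and the median log2 fold change was −0.45. The summed level of the list did not separate the genotypes. It was 1558 to 1792 CPM in wild type and 1456 to 1816 CPM in the mutant, with mutant library 1 highest. The genes with the smallest p fell: the membrane proteolipid gene plp1a (255 ± 35.8 to 89.1 ± 7.96 CPM), the sphingosine phosphate receptor gene s1pr1, which is also an endothelial gene (61.9 ± 6.52 to 27.96 ± 3.87 CPM), slc1a2b, and atp1b4 (19.6 ± 5.21 to 6.78 ± 1.04 CPM). Their edgeR adjusted p ran from 6.82e-05 to 0.000895. The gene plp1a is also an oligodendrocyte gene and is counted again in that list below. The glial calcium-binding protein gene s100b fell (log2 fold change −1.28) and the gap junction gene cx43 rose (0.37), while the glutamate transporter gene slc1a3a did not pass (−0.011, SE 0.10), all 3 singled out after their values were seen. The number that fell was 7 without wild-type library 3 or mutant library 3 and 8 to 12 without each other library, 11 without wild-type library 4 and mutant library 2, and 8 with the yolk and liver covariate. Calls over the whole table dropped too. Of all tested genes, 3665 were called lower in the main fit and 2726 without wild-type library 3. The number was 2801 without mutant library 3 and 2035 with the yolk and liver covariate.

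Of 31 tested transcription factors of neural progenitors, which regulate whether these cells divide or differentiate, 2 rose, 11 fell and 18 did not pass (41.9% called, against 32.2% of all tested genes). Their median log2 fold change was −0.27. The summed level of the list was 2096 to 2536 CPM in wild type and 1707 to 2259 CPM in the mutant, ranges that overlap. Those with the smallest p were the Notch-responsive genes her4.4 (37.5 ± 5.23 to 16.7 ± 2.47 CPM) and her4.2 (104 ± 23.5 to 43.1 ± 7.49 CPM), the zinc finger gene zic4 (26.6 ± 1.55 to 14.8 ± 1.88 CPM) and the retinal homeobox gene rx2 (12.9 ± 0.680 to 6.33 ± 1.41 CPM). The copies of her4 are near-identical, so the division of reads among them is uncertain. The progenitor gene sox2 fell slightly (log2 fold change −0.35, edgeR adjusted p = 0.0418), sox3 (−0.30, SE 0.12) and sox19a (0.027, SE 0.125) did not pass, and her6 (0.57) and her9 (0.35) rose. These 5 were singled out after their values were seen. With the yolk and liver covariate, a fit in which only 18.4% of all tested genes were called, 3 rose and 5 fell.

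Among 19 tested genes of other intermediate filaments and their linkers, 3 rose and 7 fell (52.6% called, against 32.2% of all tested genes). Their median log2 fold change was −0.15. Without wild-type library 2, 4 fell, in a fit where the genes called lower dropped from 3665 to 2680 over the whole table. The falls with the smallest p were in genes of neurons and lens: the neurofilament genes nefmb (11.9 ± 1.80 to 2.54 ± 0.745 CPM) and nefma (5.11 ± 1.46 to 0.727 ± 0.388 CPM), the peripherin gene prph (8.67 ± 1.27 to 3.19 ± 0.327 CPM), and the lens beaded filament gene BFSP1 (3.52 ± 0.647 to 1.19 ± 0.116 CPM). The epithelial keratin genes krt8 (log2 fold change 0.67) and krt18a.1 (0.89) and the neurofilament gene nefla (3.73) rose, and the muscle filament gene desma fell (−0.95), values singled out after they were seen. The wild-type level of nefla was only 0.196 to 0.393 CPM.

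Markers of the cell types that border or share these genes moved as follows, and their part in the differences above was not tested. Shares called were 79.2% (neurons), 77.3% (muscle), 76.9% (lens) and 35.7% (cycling cells), against 32.2% of all tested genes. Of 24 neuron genes 18 fell and 1 rose, with a summed level of 1349 to 1721 CPM in wild type and 821 to 978 CPM in the mutant; the smallest p were those of elavl4, snap25a, tubb2 and tubb5 (log2 fold change −1.21, −1.87, −1.34 and −1.46), though other genes of the list fell further. Of 22 skeletal muscle genes 17 fell (9945 to 15960 against 3358 to 4584 CPM), with the smallest p for tnni2a.4, myhz1.1, mylpfb and acta1b. Those that did not pass, singled out with their values known, included myod1 (log2 fold change −0.46, SE 0.22), smyhc1 (−0.16, SE 0.27) and myog (0.062, SE 0.097). Of 13 lens genes 10 fell (76.9 to 107 against 33.3 to 50.1 CPM), with the smallest p for crybb1, cryba2a, crybb1l2 and crybb1l1. The lens regulator genes foxe3 (log2 fold change 0.27, SE 0.25) and pitx3 (0.067, SE 0.13), singled out likewise, did not pass. Of 14 genes of cycling cells 5 fell (3200 to 4438 against 2668 to 3278 CPM, ranges that overlap), among them cdk1 and ccnb1 (log2 fold change −0.61 and −0.77), mki67 (−0.70) and plk1 (−0.41). The other 9 did not pass and pointed both ways, from top2a (−0.42) through pcna (−0.0039) to mcm5 (0.29), all singled out with their values known.

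Of 17 genes of mesenchyme, notochord and neural crest, 5 rose and 2 fell (41.2% called, against 32.2% of all tested genes). Their summed level was 3192 to 3810 CPM in wild type and 2289 to 3029 CPM in the mutant. It was lower although more of the called genes rose than fell, since abundant genes such as col1a1a weigh most in it. The mesenchymal genes prrx1a (25.2 ± 3.09 to 50.5 ± 1.63 CPM) and pdgfra (80.9 ± 5.84 to 128 ± 10.6 CPM) and the crest gene snai2 (50.3 ± 0.189 to 82.1 ± 8.50 CPM) rose, and the collagen gene col1a1a fell (1062 ± 99.4 to 507 ± 70.2 CPM). The crest genes did not move together: the pigment cell gene mitfa fell (log2 fold change −0.98, edgeR adjusted p = 0.0273), and crestin (−0.56, SE 0.31), foxd3 (−0.32, SE 0.24) and sox10 (0.31, SE 0.16) did not pass, all 4 picked out with their values known. Of 9 tested genes of oligodendrocytes and microglia, 33.3% were called, near the 32.2% of all tested genes. Of these, plp1a fell and mbpb (31.8 ± 3.70 to 60.9 ± 6.94 CPM) and slc7a7 (2.27 ± 1.09 to 6.48 ± 3.09 CPM) rose. The summed level of the list was 731 to 1460 CPM in wild type and 1210 to 3086 CPM in the mutant. The slc7a7 call was lost without wild-type library 1, 2 or 3 (edgeR adjusted p from 0.0549 to 0.0624) and with the yolk and liver covariate (log2 fold change 0.54, adjusted p = 0.184). In 7 of the 8 libraries more than 0.5 of that sum was apoeb, which is also a gene of the yolk syncytial layer. Of the listed genes that were not tested, the myelin gene mbpa had no count in any library, and olig1, p2ry12 and mpeg1.1 stayed under 1 CPM. Other lineage markers were tested and did not pass: olig2 (log2 fold change −0.51, SE 0.19), nkx2.2a (0.015, SE 0.16), csf1ra (−0.40, SE 0.74) and lcp1 (1.41, SE 0.52). These too were singled out with their values known.

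For each member that was called, the 2 most similar genes were sought among 12740 named genes of at least 2 log2 CPM, by the root mean square (RMS) difference of log2 CPM over the 8 libraries after each gene was centred on its mean. This distance includes the genotype difference, so similar fold changes follow from the choice and are no separate result. For nes they were akirin1 (RMS 0.0394) and slc35e3 (0.0405), both higher by about the same fold as nes (log2 fold change 0.38 and 0.37). For fabp7a they were stxbp5a (RMS 0.0977) and dlx1a (0.105), with a log2 fold change of −0.95 in both. For glula they were eppk1 (RMS 0.0941) and asrgl1 (0.108), and for mdkb ptprn2 (RMS 0.0658) and atp5f1e (0.0758). Of these 8 genes, ptprn2 did not pass (log2 fold change −0.89, edgeR adjusted p = 0.0514). It did pass in 7 of its 16 alternatives. With single libraries left out in turn, the calls of stxbp5a and asrgl1 were lost in 4 of 8 fits and those of eppk1 and atp5f1e in 6 of 8. With the yolk and liver covariate the calls of these 4 genes and of dlx1a also ended.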

How the data were processed

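The authors deposited 1 table of expected counts per gene, with 1 column per library. Per the submitters' processing notes, the tools were Trimmomatic, STAR 2.7 and RSEM, and the build was danRer11. Tool settings, annotation and strand handling were not given in the sources used here. RNA was depleted of ribosomal RNA and primed at random, per the labels' protocols. Counts were rounded, filtered with filterByExpr, scaled by TMM and tested with edgeR 4.0.16 (glmQLFit, robust, two-sided) in R 4.3.3, without a replicate block. The SE is the size of the log2 fold change divided by the square root of F. DESeq2 1.42.0 was an alternative. The fit was tested on simulated data first. The 9 members, the 12 gene lists (257 of 265 symbols matched, 252 by symbol) and the ratios were chosen with earlier results of these data known. The rule for named genes took the members, osgep, the 4 genes of each list with the smallest p and the 2 nearest genes of each called member; others are said to be singled out. A list of yolk and liver genes and 3 alternatives (each of the 2 covariates, and leaving out wild-type library 4 and mutant library 2) were added after seeing the data. No pair of libraries of a genotype agreed within sampling noise (lowest chi-square per degree of freedom 5.80, wild-type libraries 1 and 3), and each was counted as a sample. Separate preparations of 1 pool can also differ by more than sampling noise, so these values do not show that the libraries are independent. Member counts ran from 642 to 26970 per library, so counting error is small beside the spread between pools for most markers. It is not small beside the wild-type spread of nes (1.52% of the mean) or the mutant spread of glulb (1.63%). No sequence is shown. Gene lengths of this build were not used here, so ranks by abundance and ratios between genes are in counts, without correction for length.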

Additional observations from a re-analysis of the deposited data

Results flagged for a closer look

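Of 144 groups of 4 libraries screened (72 measures in each genotype), 23 held a value that stood apart from the other 3, where chance gives about 1 in 20 groups. Many measures are linked or were picked with the values known, so that rate is only a rough guide. The yolk and liver genes were listed after the values were seen, and eppk1 and asrgl1 were chosen for their likeness to glula. Most of the 23 values that stood apart belonged to wild-type library 4 or mutant library 2. For the markers these were glula in wild-type library 4 (122 CPM, the others 57.1 to 60.0) and in mutant library 2 (207 CPM, the others 114 to 125), gfap in wild-type library 2 (199.9 CPM, the others 158 to 164) and msi1 in wild-type library 4 (126 CPM, the others 156 to 161). The log2 ratio of glula to glulb stood apart in the same libraries (−1.70 in wild-type library 4 and −0.95 in mutant library 2).

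Of the other genes, wild-type library 4 stood apart for apoeb (1103 CPM), mttp (22.3 CPM), serpina1 (50.6 CPM), asrgl1 (5.91 CPM), lrp1ab (139.6 CPM) and plk1 (219.6 CPM) on the high side, and for s1pr1 (52.2 CPM) and prph (6.77 CPM) on the low side. Mutant library 2 stood apart for apoeb (2837 CPM), mttp (90.7 CPM), serpina1 (204 CPM) and eppk1 (95.6 CPM) on the high side and for s1pr1 (22.2 CPM) on the low side. Single values elsewhere were plp1a in wild-type library 2 (308 CPM), col1a1a in wild-type library 1 (914 CPM), and fabp1b.2 (27.1 CPM) and snai2 (69.3 CPM) in mutant library 1.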

How the results depend on the processing

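The direction and call of nes held under all alternatives, and those of fabp7a under all but the yolk and liver covariate (−0.57). The call of glula ended with total-count scaling (0.91), with the replicate block (0.98) and with the yolk and liver covariate (0.20), under which mdkb was also lost (−0.32) and mdka turned sign (0.20). With ribosomal protein share as a covariate vim (0.28) and gfap (−0.31) passed. Leaving out each library gave ranges of 0.71 to 1.29 for glula, −1.18 to −0.77 for mdkb, −0.041 to 0.12 for msi1 (reversed at −0.041 and −0.0045) and 0.72 to 1.154 for the glula to glulb ratio. All genes called numbered 7225 (3560 higher, 3665 lower), against 11736 (5661 and 6075) with the ribosomal protein covariate and 4143 (2108 and 2035) with the yolk and liver covariate, and 5310 to 8602 without single libraries. Genes of the 6 related lists called lower, with shared genes counted once, were 45, and 27 with the yolk and liver covariate. The paired and shortened designs could not pass for the mdka to mdkb ratio (0.68 with p = 0.125 in the exact sign-flip test of the replicate block, 0.71 with exact permutation p = 0.1 without wild-type library 4 and mutant library 2) or the fabp7a to fabp7b ratio (1.65 and 1.66), since 0.125 and 0.1 are the smallest p they allow. Same-numbered libraries deviated together with r of 0.65, 0.17, −0.27 and 0.090, which does not settle whether the numbers mark pairs. The replicate block lowered the SE of mdkb from 0.30 to 0.20 and raised that of nes from 0.080 to 0.093. Besides glula it changed no marker call, and all genes called were 7193 with it. The causes of these shifts were not tested.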
